A study of Mus musculus with 8 samples.

Results

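The regions described here are H3K27me3 peaks that were called in mouse morulae injected with Kdm6b mRNA but that had no peak nearby in morulae injected with a mutant form of it. They were chosen by the positions of the deposited peaks, as the Kdm6bWT peaks on chromosomes 1 to 19 whose edge lay more than 5000 bases from the edge of every Kdm6bMUT peak. This gave 1354 of 4788 autosomal Kdm6bWT peaks, or 28.3% (95% exact binomial interval 27% to 29.6%), out of 4991 Kdm6bWT peaks in all. They are called far peaks here, and everything that follows from the positions in both lists is described without a test. The number depends on how weak a Kdm6bMUT peak may be. The Kdm6bMUT list, with 90158 peaks, went down to a −log10 p of 2.41 and the Kdm6bWT list to 3.67. By −log10 q the lists ended at nearly the same value, 1.01 for Kdm6bMUT and 1.04 for Kdm6bWT. When only Kdm6bMUT peaks with a −log10 p of at least 3.67 counted, 2160 Kdm6bWT peaks were far.

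The study injected zygotes from 8-week-old BDF1 females with Kdm6b mRNA (Kdm6bWT) or mutant mRNA (Kdm6bMUT), each 1.8 µg/µl, starting 2.5 hours after fertilization and ending by 4 hours. All samples carry the strain label BDF1xPWK, whereas the injection protocol names BDF1 sperm and another protocol BDF1 or PWK males. H3K27me3 was profiled at the morula stage by native ChIP-seq adapted to very small cell numbers, with 1 ChIP library for Kdm6bWT and 1 for Kdm6bMUT. The 2 input libraries carry the same group names in their titles and a tag for no injection. The mutation and the number of embryos behind each ChIP library were facts not given in the sources used here. Each list is 1 library of pooled cells, so nothing below has a replicate check, and fewer cells with the mark and less of the mark per cell cannot be told apart.

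H3K27me3 is trimethylation of lysine 27 of histone H3. Polycomb repressive complex 2 lays it down, usually over domains of many nucleosomes, and Kdm6b is one of the demethylases that remove it. In early mouse embryos much of the mark is inherited from the oocyte, where it forms broad domains over regions poor in genes and transcription. Some sites in the genome also collect reads in any sequencing library, among them satellite and other repeats that the assembly holds in fewer copies than the cell, often near centromeres. Such sites give peaks in ChIP data without a mark, and a high read level in input is their usual sign. Mouse autosomes carry the centromere at their start, and their assembled sequence begins after a gap.

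The far peaks spread over a wide range of distances, and most were not close to the limit. The median distance to the nearest Kdm6bMUT peak was 78.8 kb (quartiles 22.4 and 219 kb), and the longest was 1945 kb. Of the 1354 far peaks, 1177 (86.9%) were more than 10 kb away, 835 (61.7%) more than 50 kb, 596 (44.0%) more than 100 kb and 20 (1.48%) more than 1 Mb. Just inside the limit were peaks on chromosome 7 (18795983 to 18796282, mm9), 5021 bases from a Kdm6bMUT peak, and on chromosome 8 (121750512 to 121750811), 5035 bases away. Just outside the limit were peaks on chromosome 15 (38099104 to 38100288), 4970 bases away, and on chromosome 10 (124814670 to 124815644), 4946 bases away. The first pair had fold enrichments over input of 3.76 and 4.59 and the second 3.85 and 3.88, so 3 of these 4 peaks had nearly the same fold.

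**Figure D1:**
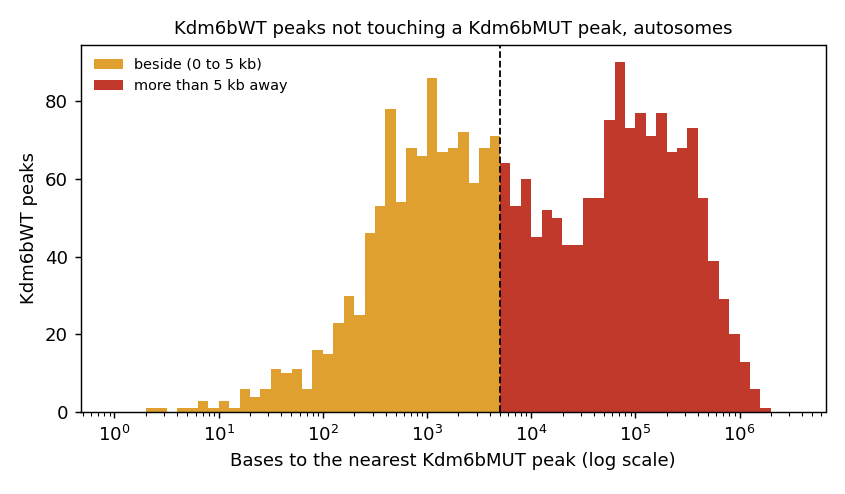
Histogram of the distance in bases (log axis) from each autosomal Kdm6bWT peak that touches no Kdm6bMUT peak to the nearest one, with the number of peaks on the vertical axis; the dashed line is the limit of 5000 bases. Peaks lie on both sides of the line without a gap, and the 1354 peaks beyond it reach 1945 kb.

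Of the 5 most distant peaks 4 were narrow, and all 5 had folds like those of most far peaks. The most distant lay on chromosome 2 (21777969 to 21778268), was 300 bases wide and had a fold of 3.65. Next came a peak 1485 kb away on chromosome 8 (8750384 to 8750683, fold 4.39) and one 1421 kb away on chromosome 11 (121586471 to 121587468, fold 3.76). The other two lay 1336 kb away on chromosome 12 (4729341 to 4729641, fold 4.16) and 1324 kb away on chromosome 11 (22549401 to 22549700, fold 4.09). The one 1421 kb away was 998 bases wide, and the other 4 were 300 or 301 bases wide, at or next to the smallest width in the list. Their implied pileups, explained further on, were 5.49 to 6.34 fragments.

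Kdm6bWT peaks thinned out with distance from Kdm6bMUT peaks, most steeply within the first 20 kb. Counted by peak midpoint, there were 8.21 Kdm6bWT peaks per Mb of sequence inside Kdm6bMUT peaks (95% exact Poisson interval 7.85 to 8.57, for counting error only). The density was 3.47 per Mb (3.29 to 3.66) within 5 kb of them, 1.52 (1.31 to 1.75) at 5 to 10 kb and 1.07 (0.912 to 1.26) at 10 to 20 kb. Beyond that it was 0.727 (0.629 to 0.836) at 20 to 50 kb, 0.840 (0.738 to 0.954) at 50 to 100 kb, 0.668 (0.583 to 0.761) at 100 to 200 kb and 0.669 (0.590 to 0.755) at 200 to 500 kb. Past 500 kb it was 0.528 (0.434 to 0.637), the lowest of these values, with an interval apart from that at 50 to 100 kb. Over all sequence more than 20 kb away, 1491.5 Mb, the density was 0.693 per Mb, and the density inside Kdm6bMUT peaks was 11.8 times as high. At 5 to 10 kb it was still 2.19 times as high, so the nearest far peaks lay in sequence denser in Kdm6bWT peaks than the rest. Sequence more than 5 kb from any Kdm6bMUT peak made up 73.1% of the autosomal length compared. Gaps and unmappable sequence count as length here, because no mm9 genome was used.

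**Figure D2:**
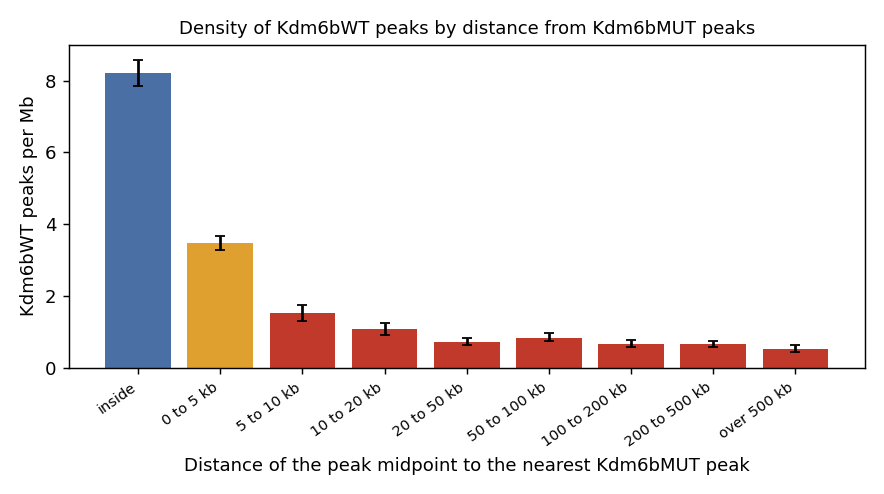
Bars give autosomal Kdm6bWT peaks per Mb of sequence (vertical axis) by distance of the peak midpoint from the nearest Kdm6bMUT peak (horizontal axis), with 95% exact Poisson intervals as error bars; blue is inside Kdm6bMUT peaks, orange within 5 kb and red farther away. The density falls from 8.21 per Mb inside to 0.727 at 20 to 50 kb and stays between 0.528 and 0.840 beyond.

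Far peaks were narrow. The median far peak was 419 bases wide (quartiles 300 and 862). The comparison sets were the 2402 Kdm6bWT peaks that touched a Kdm6bMUT peak (on-domain peaks), with a median of 584 bases (336 and 1070), and the 1032 that lay 5 kb or less from one without touching it (beside peaks), with 443 bases (300 and 841). The smallest width in the list, 300 bases, was that of 406 far peaks (29.99%, 27.6% to 32.5%), of 19.3% (17.7% to 20.9%) of the peaks on Kdm6bMUT domains and of 26.2% (23.5% to 29.0%) of those beside them. Widths of 1 kb or more were found in 268 far peaks (19.8%, 17.7% to 22.0%), 28.8% (27.004% to 30.7%) of the on-domain peaks and 17.4% (15.2% to 19.9%) of the beside peaks. Far and beside peaks thus had overlapping intervals in both measures, and the on-domain intervals lay apart from both. A wide peak touches a Kdm6bMUT peak more easily, so width is not independent of the rule and no test was made. All far peaks together covered 886 kb.

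Fold enrichment did not separate far peaks from the others in the middle of the distribution. The fold enrichment over input, a ratio as the authors deposited it, had a median of 3.84 in far peaks (quartiles 3.64 and 4.17), 3.84 in on-domain peaks (3.64 and 4.15) and 3.85 in beside peaks (3.64 and 4.15). Median −log10 p values were 4.60, 4.58 and 4.61, and the median score was 13 in each set. The lowest score was 10 in each set, so the medians lay close to the lower end of the list. Similar medians of called peaks therefore cannot show whether far and on-domain sites were equally enriched. High folds were somewhat more frequent among far peaks, though the highest single values were not theirs. A fold of 6 or more was found in 20 far peaks (1.48%, 0.905% to 2.27%), 14 on-domain peaks (0.583%, 0.319% to 0.976%) and 3 beside peaks (0.291%, 0.0600% to 0.847%). The far interval lay apart from that of beside peaks. It overlapped that of on-domain peaks, which does not show that those shares are equal. The highest fold, −log10 p and score of the autosomal list, 49.5, 144 and 1379, were those of on-domain peaks, against 11.9, 47.8 and 424 in far peaks. A score of 50 or more was found in 1.40% (0.847% to 2.18%) of far peaks and 1.12% (0.742% to 1.63%) of on-domain peaks. The lowest folds of the autosomal list were also far peaks, down to 2.26, whereas the lowest was 3.11 in on-domain and 3.08 in beside peaks.

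The deposited fold and −log10 p together show how many fragments lay over a position in most of these peaks, averaged over the peak. This depth, called the pileup, is not the number of fragments in a whole peak. MACS2, named in the submitters' processing notes, adds 1 to the fragments over a position and to the expected level before taking their ratio, and takes p from a Poisson tail. The commonest pair in the Kdm6bWT list, a fold of 3.642 with a −log10 p of 4.230, was shared by 207 peaks, and the next commonest by 2. A pileup of 5 fragments over an expected level of 0.647 gives that pair to within 6.61e-07 of the −log10 p. In the Kdm6bMUT list the commonest pair, shared by 1446 peaks, is given by 6 fragments over an expected level of 1.54, which is 2.37 times the Kdm6bWT level. These commonest levels are read here as the genome-wide floor of each library, so the Kdm6bMUT library had the higher floor. The same arithmetic turns each Kdm6bWT peak's fold and −log10 p into an implied pileup and an implied input level, given below in multiples of the floor. Both are approximate, since the deposited values are averages over a peak, and the calculation was chosen after seeing the data. The implied input level is the expected level behind the fold and −log10 p, not a count of input reads at the peak. Its lowest value in the autosomal list was 1 times the floor, so input below the floor cannot be seen.

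By this measure most far peaks had a low pileup over an input level close to the floor. Their median implied pileup was 5.75 fragments (quartiles 5.23 and 6.45), against 5.69 in on-domain and 5.73 in beside peaks. The implied pileup was under 8 fragments in 1261 far peaks (93.1%, 91.7% to 94.4%). The share was 96.9% (96.1% to 97.6%) in on-domain and 97.9% (96.8% to 98.7%) in beside peaks. Low pileups were thus common to the whole list and somewhat less frequent among far peaks. The implied input level was within 1.5 times the floor in 1279 far peaks (94.5%, 93.1% to 95.6%), compared with 97.5% (96.8% to 98.1%) of on-domain and 97.4% (96.2% to 98.3%) of beside peaks. A high input level, the usual sign of a site that collects reads, was seen in a small part of the far peaks. It exceeded 5 times the floor in 22 of 1354 (1.62%, 1.02% to 2.45%), in 18 of 2402 on-domain peaks (0.749%, 0.445% to 1.18%) and in 5 of 1032 beside peaks (0.484%, 0.157% to 1.13%). The intervals of far and on-domain peaks overlap, which does not show that the shares are equal. Without a run of 9 peaks on chromosome 11 the far share was 0.967% (0.516% to 1.65%). The 22 peaks held 8.37% of the far bases. They were 1773 bases wide in the median, while the other 1332 had a median of 412 bases. Only sites called above input are listed, so sites high in input without such an excess are missing. A peak of low pileup can be called only over a low input level, so pileup and input level are not independent. These shares therefore do not measure how many far peaks are background.

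The next sign uses the same fold and −log10 p as the implied input level and is not independent of it. It was a fold below the lower quartile (3.642) together with a −log10 p above the upper quartile (5.154) of all autosomal Kdm6bWT peaks. It was met by 9 far peaks (0.665%, 0.304% to 1.26%), 1 on-domain peak (0.0416%, 0.00105% to 0.232%) and 2 beside peaks (0.194%, 0.0235% to 0.698%). All 9 far peaks were among the 22 with a high implied input level. Of the 9, all but 2 belonged to the chromosome 11 run. The others lay on chromosome 15 (74915775 to 74917485, fold 3.55, −log10 p 14.4) and on chromosome 2 (181652008 to 181653821, fold 3.51, −log10 p 12.9), with implied input levels of 20.6 and 18.4 times the floor. Without the run the far share was 0.149% (0.0180% to 0.536%).

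**Figure D3:**
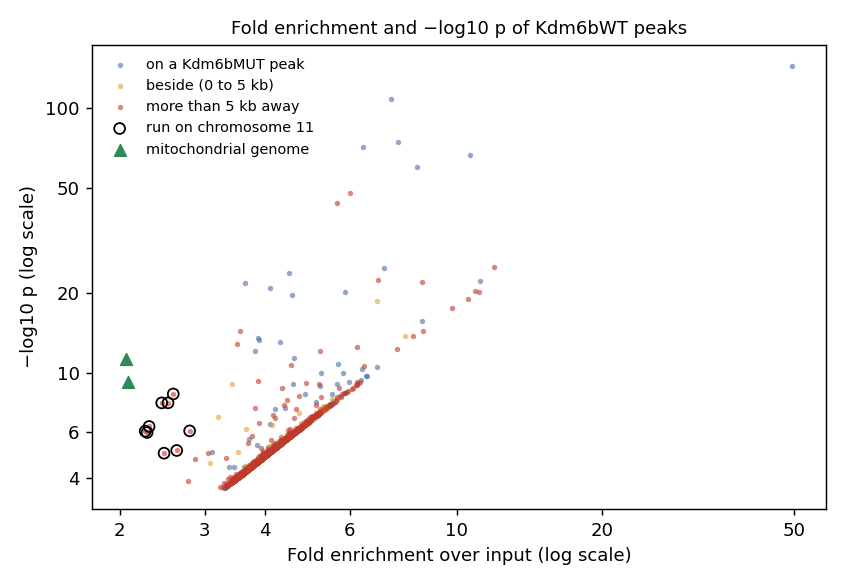
Each point is a Kdm6bWT peak, with fold enrichment over input on the horizontal axis and −log10 p on the vertical axis, both log scales; colours give the distance class, open circles the 9 peaks of the chromosome 11 run and triangles the 2 mitochondrial peaks. Most peaks of every class lie on 1 line, while the run lies to its left at folds of 2.26 to 2.79.

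The largest group of far peaks was a run of 9 at the start of chromosome 11, and its peaks were wide with low folds. It extended over 99.8 kb (3000255 to 3100024) near the first assembled bases of the chromosome, and its peaks covered 54.8 kb, or 55.0% of its length and 6.19% of all far bases. From the start of the chromosome on, the folds were 2.47, 2.79, 2.63, 2.58, 2.45, 2.26, 2.30, 2.52 and 2.28. All 9 were below the lowest fold of the on-domain peaks. The widths were 2157, 1732, 3868, 5733, 13768, 7882, 2456, 12126 and 5108 bases, so that even the narrowest was wider than the upper decile of all far peaks (1249 bases). The −log10 p values were 4.97 to 8.32, and the implied input levels were 11.7 to 27.3 times the floor. Between its first and second peaks lay 3 Kdm6bMUT peaks of 773, 813 and 1102 bases, with folds of 3.08, 2.70 and 2.96 in their own list. The other 8 Kdm6bWT peaks followed with no Kdm6bMUT peak among them.

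**Figure D4:**
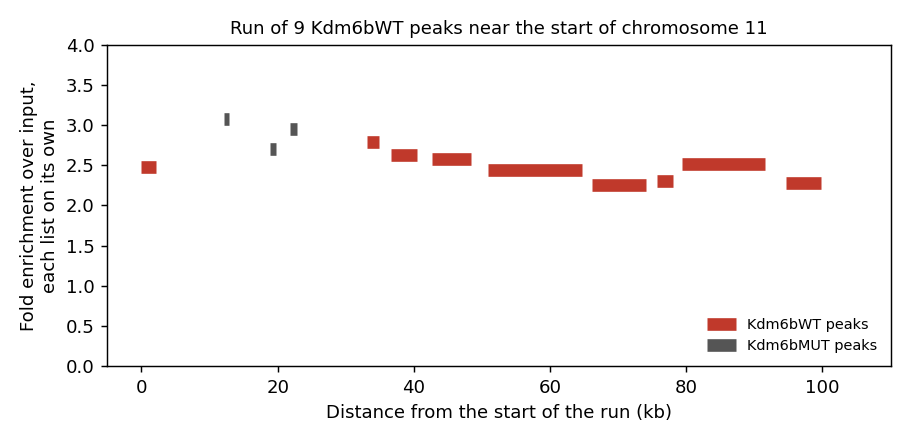
Bars are the peaks of the chromosome 11 run (red, Kdm6bWT) and the 3 Kdm6bMUT peaks among them (grey), drawn by distance in kb from the start of the run and by fold enrichment over input, each list on its own. The 9 Kdm6bWT peaks lie at folds of 2.26 to 2.79, and the Kdm6bMUT peaks all lie in the space after the first of them.

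The mitochondrial genome, which is not packaged in histones, gives a comparison for such values. Its 2 Kdm6bWT peaks were 4520 and 5338 bases wide with folds of 2.06 and 2.08, and their implied input levels were 78.8 and 59.4 times the floor. The chromosome 11 run shared with them a fold under 3, a width over 1 kb and an input level over 10 times the floor. The input levels of the run, 11.7 to 27.3 times the floor, were however below both mitochondrial values. Fold and implied input level are not independent, so they are not separate traits. Of the 1345 far peaks outside the run, 2 had a fold under 3, on chromosome 1 (90154002 to 90155011, fold 2.77) and chromosome 4 (3017010 to 3018696, fold 2.86). Whether the run is H3K27me3 or reads collected by repeated sequence was not tested.

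The far peaks with the highest scores fell in sequence of either high or low input. At the top, with a score of 424, was chromosome 11 from 108872876 to 108873517, with a fold of 6.01, a −log10 p of 47.8 and an implied input level of 25.7 times the floor. Chromosome 17 from 39980092 to 39985897, 5806 bases wide, scored 384, with a fold of 5.65, a −log10 p of 43.9 and an implied input level of 26.4 times the floor. In these peaks both the ChIP and the input level were high, with implied pileups of 105 and 101 fragments. A score of 173 was found on chromosome 5 (147072404 to 147072944, fold 6.85), at 7.36 times the floor. Scores of 200 on chromosome 10 (75255564 to 75256076, fold 11.9) and 171 on chromosome 17 (36368009 to 36368680, fold 8.46), had lower input levels of 1.79 and 4.20 times the floor.

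The highest folds, in contrast, stood over an input near the floor, which ranking by fold favours because a high input lowers the fold. The 5 highest were the chromosome 10 peak just named and peaks on chromosome 6 (132413521 to 132414040, fold 11.1), chromosome 7 (147277820 to 147278413, fold 10.9), chromosome 17 (4883550 to 4884062, fold 10.5) and chromosome 6 (125826756 to 125828097, fold 9.77). Their implied input levels were between 1.12 and 1.79 times the floor and their implied pileups between 17.1 and 24.7 fragments. Apart from the last, of 1342 bases, these peaks were 513 to 594 bases wide. The nearest Kdm6bMUT peak was 18.2 kb from the one on chromosome 7 and 452 kb from the one on chromosome 10. In the autosomal Kdm6bWT list 7 of the 10 highest folds (70.0%, 34.8% to 93.3%) and 26 of the 50 highest (52.0%, 37.4% to 66.3%) were far peaks, against 28.3% of all peaks. By score, they were 3 of the 10 highest and 20 of the 50 highest (26.4% to 54.8%), an interval that includes 28.3%. Far peaks also made up 6 of the 10 widest (interval 26.2% to 87.8%), 5 of them from the chromosome 11 run, and 12 of the 50 widest (13.1% to 38.2%).

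Apart from the chromosome 11 run, far peaks were mostly solitary. The median gap from a far peak to the nearest other Kdm6bWT peak was 233 kb (quartiles 95.8 and 496 kb), against 53.4 kb (17.5 and 152 kb) for on-domain and 80.1 kb (24.1 and 226 kb) for beside peaks. Another Kdm6bWT peak lay within 50 kb of 195 far peaks (14.4%, 12.6% to 16.4%), of 47.9% (45.9% to 49.9%) of on-domain peaks and of 38.2% (35.2% to 41.2%) of beside peaks. Another far peak lay within 50 kb of 129 (9.53%, 8.02% to 11.2%). Counted in the same way within their own sets, the share was 14.2% (12.2% to 16.5%) for beside peaks, nearer to the far share. For on-domain peaks it was 39.6% (37.6% to 41.5%). Far peaks lie by the rule away from Kdm6bMUT peaks, where Kdm6bWT peaks are sparser, and no test was made. Joined across gaps of less than 50 kb, the far peaks formed 1225 single peaks, 53 pairs, 3 groups of 3, 1 of 5 and the run of 9. The group of 5 lay on chromosome 8 (90604852 to 90680003). Its peaks were 391 to 1520 bases wide, with folds of 3.47 to 4.56 and implied input levels of 1.14 to 1.49 times the floor, so it did not share the low folds and high input of the run. The groups of 3 lay on chromosome 3 (46656591 to 46705835 and 52112476 to 52131585) and chromosome 1 (60518655 to 60566843), with folds between 3.56 and 4.39 and implied input levels of 1.10 to 1.35 times the floor.

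Counted in windows of 1 Mb, 972 of 2420 autosomal windows held a far peak, and 679 of these held only 1. The fullest was the window from 3 to 4 Mb on chromosome 11, with 10 far peaks that covered 55.1 kb. Windows with 5 far peaks were found on chromosome 8 from 90 to 91 Mb, on chromosome 2 from 9 to 10 Mb and on chromosome 16 from 17 to 18 Mb, and 12 windows had 4, of which the one on chromosome 12 from 56 to 57 Mb had the most covered sequence. Kdm6bMUT peaks covered 132 kb of the chromosome 8 window and 9.14 and 1.86 kb of those on chromosomes 16 and 12, whereas the chromosome 2 window had none. Windows without any Kdm6bMUT coverage held 110 far peaks (8.12%, 6.72% to 9.71%) and made up 191 of the 2420 windows (7.89%), so their far share was close to their share of windows. These windows had a length of 190 Mb, which gives 0.580 far peaks per Mb, against 0.781 peak midpoints per Mb over all sequence more than 5 kb from Kdm6bMUT peaks. Within 500 kb on either side of a far peak, Kdm6bMUT peaks covered a median of 3.82% of the sequence (quartiles 0.711% and 10.5%), against 22.4% around on-domain peaks. Most far peaks were thus in regions poor in Kdm6bMUT peaks, which the rule favours.

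All 19 autosomes carried far peaks, and chromosome 7 had the fewest per Mb. The median was 0.563 far peaks per Mb, with a range from 0.382 (95% exact Poisson interval 0.289 to 0.495) on chromosome 7 to 0.852 (0.694 to 1.03) on chromosome 11. Without the run of 9, chromosome 11 had 0.776 per Mb, below the 0.810 (0.595 to 1.08) of chromosome 19, so the order of these 2 turned on the run. At the lower end chromosome 17 had 0.416 (0.294 to 0.571) and chromosome 9 0.430 (0.321 to 0.563). Far peaks made up 20.4% (14.9% to 26.9%) of the Kdm6bWT peaks on chromosome 17, which had the highest Kdm6bMUT coverage, 12.5%. On chromosome 19, with the lowest coverage, 5.84%, they made up 39.8% (30.9% to 49.3%), and this was the only autosome with more far than on-domain peaks (47 against 39). Over the 19 autosomes far peaks per Mb and the percentage covered by Kdm6bMUT peaks had a Spearman correlation of -0.49 and a Pearson correlation of -0.50. Counted per Mb of sequence more than 5 kb from Kdm6bMUT peaks, both were -0.34. The rule itself ties these measures, since covered sequence cannot hold a far peak, and no p is given.

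**Figure D5:**
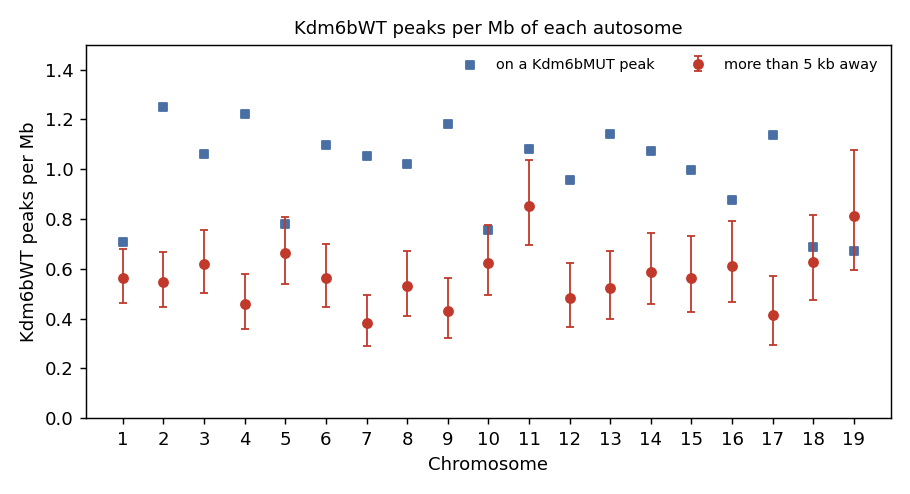
Far peaks per Mb (red circles, with 95% exact Poisson intervals) and Kdm6bWT peaks on Kdm6bMUT peaks per Mb (blue squares) for each autosome. Far peaks range from 0.382 per Mb on chromosome 7 to 0.852 on chromosome 11, or 0.776 there without the run of 9, and exceed the on-domain peaks only on chromosome 19.

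The first assembled sequence of the autosomes held a larger share of the far peaks than of the other sets, with intervals that overlapped in part. Between 3 and 4 Mb, the first assembled Mb of each autosome, lay 28 far peaks (2.07%, 1.38% to 2.97%), 13 on-domain peaks (0.541%, 0.288% to 0.924%) and 7 beside peaks (0.678%, 0.273% to 1.39%), while this zone of 19 Mb in all made up 0.788% of the length from 3 Mb to the last peaks. With the chromosome 11 run included, the far interval lay apart from that of on-domain peaks and just overlapped that of beside peaks. Without the run the far share was 1.41% (0.853% to 2.197%), and its interval overlapped both. The far density in the zone was 1.47 peaks per Mb, or 1 per Mb without the run, against 0.562 over the autosomes from 3 Mb on. Of the 19 Mb, 4.03 Mb lay before the first peak of either list, and without that stretch the densities were 1.87 and 1.27 per Mb. Kdm6bMUT peaks covered only 1.83% of the zone, compared with 10.3% of the autosomes, so more of the zone could hold a far peak. The 28 peaks came from 12 autosomes. Chromosome 11 gave 10 of them, chromosome 4 gave 4 and chromosome 16 gave 3, and the remainder had 1 or 2 each.

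Of the 28 far peaks at chromosome starts, 11 had an implied input level over 5 times the floor, as did 11 of the 1326 elsewhere. Apart from the run these were a peak on chromosome 4 (3017010 to 3018696, fold 2.86, 7.47 times the floor) and one on chromosome 16 (3113737 to 3117216, fold 4.54, 6.98 times the floor). By bases the start zone held 8.15% of far coverage, and 2.09% without the run. In the last 1 Mb before the end of the last peak of each autosome lay 13 far peaks (0.960%, 0.512% to 1.64%), 10 on-domain peaks (0.416%, 0.200% to 0.764%) and 9 beside peaks (0.872%, 0.400% to 1.65%), in a zone that made up 0.790% of the length. Because peaks of either list set where the zone ends, the last peak of an autosome always lay in it, so these shares are not independent of the zone. Of the 13 far peaks, 2 had a high implied input level, those on chromosome 2 (181652008 to 181653821) and chromosome 1 (197067778 to 197068110).

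Along whole chromosomes, far peaks were most numerous toward the start. With each autosome divided into 10 equal stretches from the first to the last peak, 181 far peaks (13.4%) lay in the first stretch, 152 (11.2%) in the last and 96 (7.09%), the fewest, in the sixth. The last stretch stood out little, as the second held 11.1% and the fourth, seventh and ninth 10.2%, 10.3% and 10.2%. On-domain peaks numbered 61 (2.54%) in the first stretch and 404 (16.8%) in the last, and beside peaks 46 and 142. This difference was not tested, and the stretches differ in how much sequence lies far from Kdm6bMUT peaks.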

How the data were processed

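Each peak list comes from 1 H3K27me3 ChIP library compared with input. Per the submitters' processing notes, the build was mm9 and the tools included MACS2 and Bowtie2 2.2.2, with no roles stated. Caller settings and any scaling of input were not given in these sources. The deposited columns hold positions, a fold enrichment (a ratio), a −log10 p, a −log10 q and a whole-number score, ordered as MACS2 writes broad peaks. The deposited score equals 10 times the −log10 q rounded down. Positions are given counted from 1. RNA-seq was not used here.

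Distances, groups and densities were computed with scipy 1.17.1, pandas 2.3.3 and numpy 2.4.6 under Python 3.11.15. Plots were drawn with matplotlib 3.10.9. Distances are the bases between peak edges. Intervals are 95% exact binomial or Poisson ones, cover counting error only, and treat neighbouring peaks as independent. Overlap of intervals does not show that the values are equal. With 1 library per group no test was made. The code was tested on simulated data. The named regions are the 5 widest, highest in fold, highest in score and most distant far peaks, the 5 largest runs, the 5 windows with most far peaks (ties by covered length) and the 2 peaks on each side of the limit; the regions with a high implied input level were chosen after their values were seen. The members and lists were chosen with earlier results of these data known. Alternatives changed the distance limit, the lists' thresholds, the zones, the windows and the joining distance. Depth is unknown beyond the implied floor of each list. The annotation used here is for another build, so no gene or sequence was placed on the peaks.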

Additional observations from a re-analysis of the deposited data

Results flagged for a closer look

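Signals outside the autosomes, which the comparisons above do not use, were found in 3 places. The Kdm6bWT list held 2 mitochondrial peaks, and the Kdm6bMUT list held 0. On the X chromosome 114 of 190 Kdm6bWT peaks (95% exact interval 52.7% to 67.0%) lay more than 5 kb from any Kdm6bMUT peak, with a median width of 458 bases, a median fold of 3.78 and a highest fold of 5.11. On unplaced sequence this held for 4 of 11 Kdm6bWT peaks, with folds of 2.81 to 4.28.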

How the results depend on the processing

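No paired analysis was possible because only 1 ChIP library per injection was analysed. Of 58 values under alternative settings, 35 stayed within 1.5 times the reported count or inside the 95% exact interval of the reported median or share, and 23 did not; floors on score or width and stricter limits leave fewer peaks by their construction. For the rest the cause was not tested. A distance limit of 50 kb left 835 far peaks, and limits of 20 and 50 kb raised the share in windows without Kdm6bMUT coverage to 10.7% and 13.2%. Holding Kdm6bMUT peaks to the weakest p among Kdm6bWT peaks gave 2160 far peaks. With a Kdm6bWT score at or above the median there were 713 far peaks, with a median width of 331 bases, a median fold of 4.14, 1.26% with low fold and high −log10 p, 6.03% grouped and 2.95% with a high implied input level. Peaks of at least 1 kb numbered 268. Without the first 1 Mb of each autosome the share with low fold and high −log10 p was 0.151% and that with a high implied input level 0.830%. Joining distances of 10 and 100 kb grouped 3.18% and 16.5% of far peaks. Start zones of 2 and 5 Mb held 3.03% and 5.83% of far peaks, the 1 Mb zone 8.15% of far bases, and windows of 500 kb without Kdm6bMUT coverage 22.5% of far peaks. All settings of the implied input level, and all those without the chromosome 11 run, were chosen after seeing the data. Limits of 2 and 10 times the floor gave 3.18% and 0.960% of far peaks with a high implied input level. Without the chromosome 11 run 0.149% had low fold and high −log10 p and 0.967% a high implied input level. The planned gene and sequence context was not made.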

Other observations

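Split into 4 groups of nearly equal size by their distance from Kdm6bMUT peaks, far peaks had medians close to each other. The 339 nearest, at 5.02 to 22.4 kb, had a median width of 441 bases, a median fold of 3.81 and a median implied pileup of 5.69 fragments. The 339 most distant, at 219 kb or more, had 415 bases, 3.86 and 5.82 fragments. Implied input levels over 5 times the floor were found in 8, 10, 2 and 2 peaks from the nearest to the most distant group, and all 9 peaks of the chromosome 11 run were in the nearest 2 groups. Peaks with the commonest pair of fold and −log10 p, that of 5 fragments over the floor, were 44 of the far peaks (3.25%, 2.37% to 4.34%) and 100 of the on-domain peaks (4.16%).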
